A study of Mus musculus with 10 samples.

Results

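Chemokine receptors are the surface proteins through which leukocytes follow chemokine gradients, and 9 of their genes are described here in mouse bone marrow-derived dendritic cells (BMDCs) exposed to a leaf extract. The genes were taken by symbol (Ccr7, Ccr1, Ccr2, Ccr3, Ccr6, Ccrl2, Cxcr2, Cxcr4 and Cx3cr1), and all 9 had a row among the 24385 gene symbols of the count table. The marrow donors were wild-type C57BL/6 females, 8 to 10 weeks old, and the marrow was cultured for 7 days with the growth factor GM-CSF at 20 ng/mL. Non-adherent immature cells were taken on day 6 and kept for 24 h with AMLE, an apple mango leaf extract, at 400 µg/mL, or with 0.04% DMSO as the vehicle. RNA was sequenced from 3 DMSO and 3 AMLE libraries, and open chromatin was mapped by ATAC-seq (transposase insertion) in 2 DMSO and 2 AMLE libraries of 100000 cells each. The labels name no separate mice or cultures behind the replicates, so p-values measure the spread between these libraries, which may be technical.

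Apart from the atypical Ccrl2, these receptors couple to G proteins of the Gi class, and binding of a chemokine starts calcium flux, phosphoinositide 3-kinase activity and directed movement. Immature dendritic cells and monocytes carry receptors for inflammatory chemokines, among them Ccr1, Ccr2 and Ccr6, which draw them into tissue. Maturing dendritic cells are known to display Ccr7, the receptor for Ccl19 and Ccl21 of lymphatic vessels and lymph nodes, and to lose several of the inflammatory receptors, an exchange often called the chemokine receptor switch. GM-CSF cultures also hold other myeloid cells, and Ccr3 is best known from eosinophils and basophils and Cxcr2 from neutrophils.

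Total counts ran from 26010455 to 34208286 per RNA library. Of 7 dendritic cell markers, all detected in both groups, 3 rose, 1 fell and 3 were not called. Flt3, the receptor for a dendritic cell growth factor, rose from 8.15 to 39.2 CPM (reads of a gene scaled to the effective size of its library), and Zbtb46 from 24.8 to 45.5 and Cd86 from 106 to 289 rose as well. H2-Ab1, a class II gene, fell from 1177 to 727 CPM, a call lost with no low-count filter (edgeR adjusted p = 0.098) and on leaving out DMSO replicates 2 or 3 or AMLE replicates 1 or 2 (0.087 to 0.13). Not called were Dpp4, at 24.4 and 22.0 CPM, Itgax and Cd74. Itgax, which encodes CD11c, stood at 708 CPM in DMSO and 688 in AMLE, and Cd74, the invariant chain, at 3931 and 3205 (called lower with replicate numbers as blocks, 0.025). Markers of other cells were present as well. The summed level of 9 neutrophil and granulocyte precursor markers was 11430 to 18480 CPM in DMSO and 8212 to 11730 in AMLE, that of 7 eosinophil markers 1348 to 2078 and 1844 to 2418, and that of 8 mast cell and basophil markers 213.9 to 362.8 and 345.5 to 664.3. In addition, 7 monocyte markers summed to 4574 to 6141 and 3902 to 9047 CPM, 8 macrophage markers to 317.9 to 518.9 and 188.5 to 203.7, and 7 lymphocyte markers to 20.4 to 29.4 and 20.1 to 29.2. Most of the monocyte sum in every library was Chil3, which was not called (0.73, edgeR adjusted p = 0.20), so the sum does not show the other monocyte markers. In such bulk RNA, fewer cells of a type and less RNA per cell cannot be told apart. The first principal component held 76.6% of the variance of log2 CPM and parted the groups, with AMLE replicate 3 nearest to the DMSO libraries (23 against −42.0 to −31.1, and 38.3 and 46.5 for AMLE replicates 1 and 2).

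In the bulk mRNA of these mixed cultures, only part of the pattern of the receptor switch was seen. Ccr7 rose and Ccr2, the receptor for monocyte-attracting chemokines such as Ccl2, fell, but the receptors Ccr3 and Cxcr2 rose. Ccr1 was not called, nor was Ccr6, which was barely detected. Which cells carried these changes was not tested. All 9 members passed the low-count filter. By edgeR's quasi-likelihood test at an adjusted p below 0.05, 5 of 9 were higher (Ccr7, Ccr3, Cxcr2, Ccrl2 and Cxcr4) and 1 was lower (Ccr2), against 23.0% of the 13075 tested genes called higher and 25.6% called lower. The same 5 had all AMLE libraries above all DMSO libraries, as did 28.4% of tested genes, and Ccr2 had them all below, as did 31.4%. The median log2 fold change was 0.41 over the 9 members and −0.01 over all genes tested. The counts were again 5 higher and 1 lower on leaving out either library numbered 3 or both. They were 4 higher and 1 lower without AMLE replicate 1 or 2, without DMSO replicate 1 or 2, and with no low-count filter. With only 9 genes these counts describe the receptors and set them apart from no other group. The shares called over all tested genes are also the background for the counts of marker genes.

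**Figure D1:**
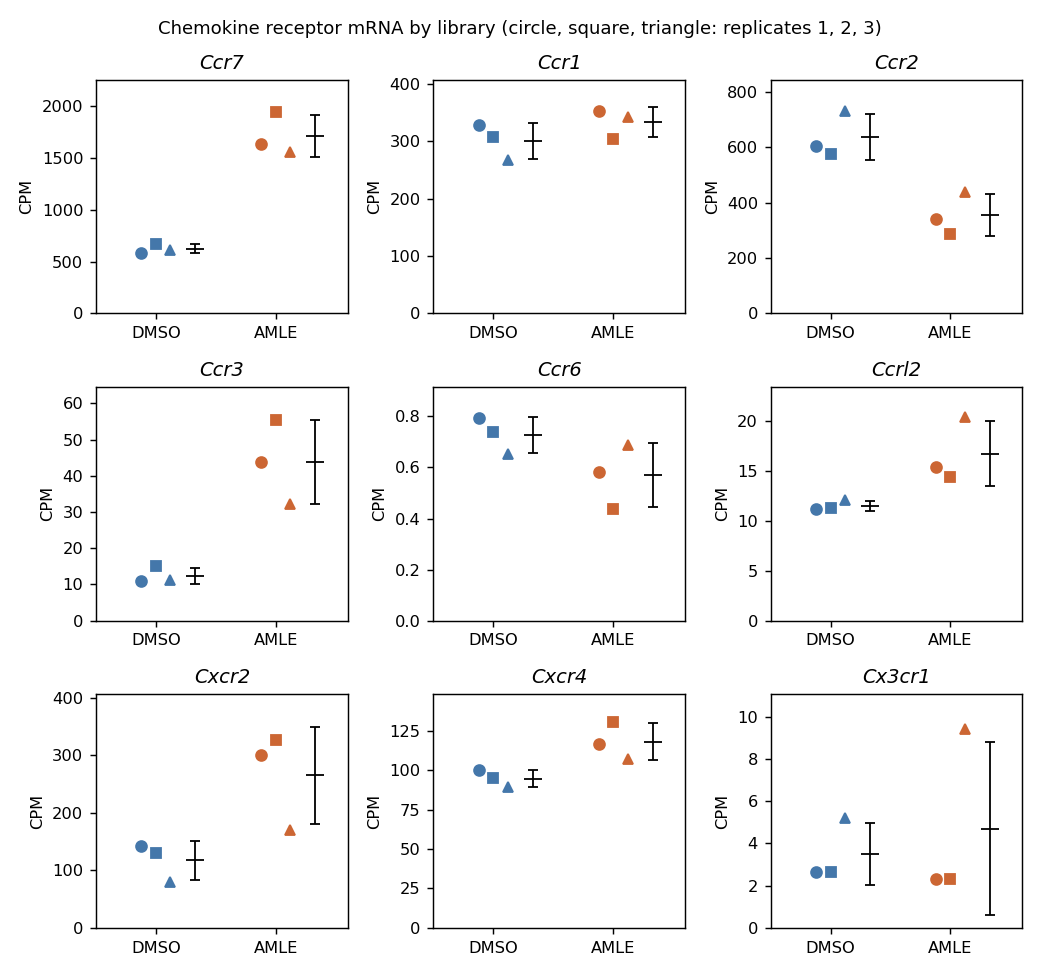
Level of each receptor mRNA in CPM (y axis, from 0, a separate scale per gene) in the 3 DMSO and 3 AMLE libraries, with symbols for the replicate number and black bars for mean ± SD. Ccr7 lies between 588 and 673 CPM in DMSO and between 1564 and 1948 in AMLE, while Ccr2 lies lower in all AMLE libraries.

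Ccr7, the receptor for homing to lymph nodes, had 18488, 19176 and 17852 reads in the DMSO libraries and 42075, 66766 and 40930 in the AMLE libraries. Scaled to library size, it stood at 588, 673 and 615 CPM in DMSO replicates 1 to 3 and at 1634, 1948 and 1564 CPM in AMLE replicates 1 to 3. The groups did not overlap, and all 3 AMLE libraries were above all 3 DMSO libraries. The rise was 2.74-fold (log2 fold change 1.46 ± 0.10, SE, n = 3 per group; edgeR adjusted p = 8.4e-05), from 625 ± 43.8 to 1715 ± 205 CPM (SD). Over the fits that each left out 1 library the log2 fold change stayed between 1.36 and 1.53. In rank of absolute change Ccr7 was at position 633 of the 13075 genes tested.

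Among the inflammatory CC receptors, Ccr2 was at 605, 574 and 731 CPM in DMSO and 339.7, 287 and 437 CPM in AMLE. It was 1.80-fold lower after the extract, a log2 fold change of −0.84 ± 0.16 (edgeR adjusted p = 0.0056), and the groups did not overlap. In both groups replicate 3 was the highest library. Ccr2 therefore remained expressed at 355 ± 76.4 CPM after the extract. Ly6c2, the surface marker of classical monocytes on which Ccr2 is also displayed, fell by 1.08 on the log2 scale, and 3 of the 7 tested monocyte markers fell (Ly6c2, Fcgr1 and Ms4a4c), with the other 4 not called. With replicate numbers as blocks 5 of the 7 fell, F13a1 (−0.59, edgeR adjusted p = 1.0e-04) and Plac8 (−0.35, 0.0036) in addition. Ms4a4c was not called with DESeq2 (0.053) or on leaving out DMSO replicates 2 or 3 or AMLE replicates 1 or 3 (0.051 to 0.088), and Chil3 was called higher on leaving out AMLE replicate 3 (0.0014). The part of monocyte content in the fall of Ccr2 was not tested.

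Ccr1, a receptor for Ccl3, Ccl5 and related chemokines, was at 328, 307 and 267 CPM in DMSO and 353, 305 and 343 in AMLE. The groups overlapped and the log2 difference was 0.15 ± 0.09 (SE; edgeR adjusted p = 0.20), with an approximate 95% interval of −0.03 to 0.33. A fall of the size seen for Ccr2 lies outside that interval. Ccr6, the receptor for Ccl20, was barely detected, with 25, 21 and 19 reads in DMSO and 15, 15 and 18 in AMLE. The exact 95% Poisson intervals of these counts ran from 11.4 to 36.9 in DMSO and from 8.4 to 28.4 in AMLE, for counting error alone. A difference in Ccr6 was not detectable at this depth (−0.37 ± 0.26, edgeR adjusted p = 0.26).

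Ccr3, the eotaxin receptor, was at 10.9, 15.0 and 11.2 CPM in DMSO and at 43.9, 55.3 and 32.1 CPM in AMLE. Every AMLE library was above every DMSO library, and AMLE replicate 3 was the lowest of its group. The rise was 3.56-fold (1.83 ± 0.22, edgeR adjusted p = 7.6e-04), the highest change of the 9 receptors. Of 7 tested eosinophil markers 2 rose (Siglecf, a sialic acid-binding lectin, 0.53, and Il5ra, the interleukin 5 receptor, 0.73) and the other 5 were not called. Siglecf was not called without DMSO replicate 1 (adjusted p = 0.0501), and Il5ra not without DMSO replicates 1 or 2 or AMLE replicate 2 (0.058 to 0.10). In turn Prg2 and Ear1 were called higher with DESeq2 (0.013 and 0.039) and on leaving out AMLE replicate 3 (edgeR, 0.0093 and 0.049), which makes 4 of 7. Epx, the eosinophil peroxidase, was at 389 CPM in DMSO and 366 in AMLE (−0.09, adjusted p = 0.78). Of 7 tested mast cell and basophil markers 3 rose, among them Cpa3 (1.40) and the basophil protease Mcpt8 (1.17), and the other 4 were not called. With replicate numbers as blocks 6 of the 7 rose, with Gata2 (0.80, edgeR adjusted p = 2.9e-05), Prss34 (0.65, 1.4e-05) and Ms4a2 (0.60, 0.013) in addition. On leaving out AMLE replicate 3, 6 rose and 1, Kit, fell. Kit was also called lower with DESeq2 (0.027) and limma-voom (0.048). The same held without DMSO replicate 3 (edgeR, 0.028) and without both libraries numbered 3 (3.0e-05). The 3 markers called higher became 1 on leaving out AMLE replicate 1, AMLE replicate 2, DMSO replicate 2 or DMSO replicate 3, or with no low-count filter, and 2 on leaving out DMSO replicate 1. The Mcpt8 call held on leaving out AMLE replicate 3 but on leaving out none of the other 5 libraries (adjusted p = 0.051 to 0.10), nor with no low-count filter (0.11). The part of these cells in the rise of Ccr3 was not tested.

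Ccrl2, an atypical receptor that binds chemerin without G protein signalling and guides dendritic cells in concert with other receptors, was at 11.2, 11.3 and 12.1 CPM in DMSO and at 15.4, 14.4 and 20.4 CPM in AMLE. It rose 1.45-fold (0.54 ± 0.14, edgeR adjusted p = 0.014) with no overlap of the groups. AMLE replicate 3 was the highest, and without it the change was 0.38. The call was lost without DMSO replicate 1 (0.053) or DMSO replicate 2 (0.053).

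Cxcr2, the receptor for Cxcl1, Cxcl2 and other neutrophil attractants, was at 143, 129.8 and 79.1 CPM in DMSO and at 301, 326 and 169.6 CPM in AMLE. Replicate 3 was the lowest library in both groups, and the groups came close at AMLE replicate 3 and DMSO replicate 1. The rise was 2.26-fold (1.18 ± 0.30, edgeR adjusted p = 0.016). The call was lost without AMLE replicate 1 (0.052) or AMLE replicate 2 (0.053) and with no low-count filter (0.063). With replicate numbers as blocks it was kept, at 1.17 ± 0.06 (edgeR adjusted p = 3.9e-06). Csf3r, the receptor for the growth factor G-CSF on neutrophils, was at 404, 378 and 241 CPM in DMSO and 433, 435 and 355 in AMLE (0.26, adjusted p = 0.31; called with replicate numbers as blocks, 0.034). None of the 9 tested neutrophil and granulocyte precursor markers rose in the edgeR fit without blocks (0 at an unadjusted p under 0.05) and 6 fell, among them Elane (−4.62) and Mpo (−3.01), granule enzymes. With blocks 8 fell, S100a8 (−0.52, adjusted p = 0.0011) and S100a9 (−0.43, 0.0027) in addition, and 1, Csf3r, rose. S100a8 was also called lower with DESeq2 (0.014), and both S100a8 and S100a9 without DMSO replicate 3 (edgeR, 0.014 and 0.026). The mast cell and basophil sum was 357, 363 and 214 CPM in DMSO and 613, 664 and 346 in AMLE, also lowest in replicate 3 of each group. So was the neutrophil and granulocyte precursor sum (18483, 16176 and 11431 in DMSO, 11726, 9766.5 and 8212.3 in AMLE). The monocyte sum had its lowest values there too (6141.1, 5021.5 and 4574.5 in DMSO, 9047.4, 8512 and 3902.3 in AMLE). Most of that sum was Chil3, at 4375.1, 3459.3 and 2860.5 CPM in DMSO and 7768.4, 7599.8 and 2349 in AMLE. Plac8 was also lowest in replicate 3 of each group. Fcgr1 and F13a1 were highest there, and Ly6c2, Csf1r and Ms4a4c had neither pattern in both groups. The part of any of these cells in the level of Cxcr2 was not tested.

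Cxcr4, the receptor for Cxcl12 that holds leukocytes in bone marrow and also acts in dendritic cell migration, was at 99.9, 94.7 and 89.1 CPM in DMSO and at 117, 130.2 and 107 CPM in AMLE. The groups did not overlap, and the rise was small (1.25-fold, 0.32 ± 0.08, edgeR adjusted p = 0.014). Cx3cr1, the fractalkine receptor of monocytes and macrophages, was at 2.67, 2.67 and 5.20 CPM in DMSO and at 2.33, 2.33 and 9.44 CPM in AMLE. Replicate 3 was the highest library in both groups, with 151 and 247 reads against 60 to 84 in the others. The difference of 0.41 ± 0.60 was not called (edgeR adjusted p = 0.60) and turned to −0.57 on leaving out AMLE replicate 3 (0.18), and to −0.18 on leaving out DMSO replicate 3 as well (0.42).

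**Figure D2:**
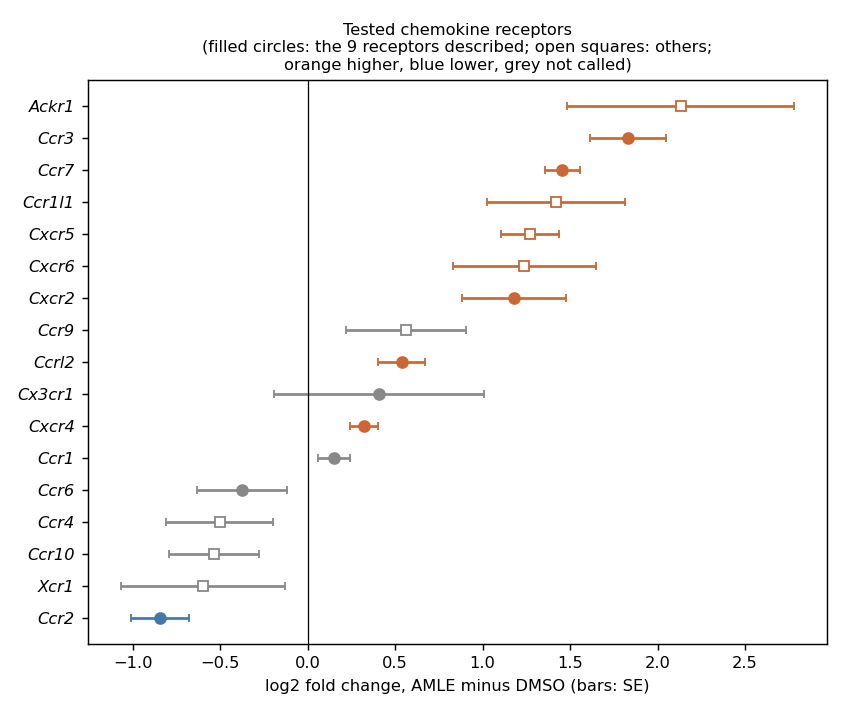
Log2 fold change with its SE (x axis) for the tested chemokine receptor genes reported here (y axis, ordered by change), with filled circles for the receptors described and open squares for other chemokine receptors. Ccr3 and Ccr7 lie near the top at 1.83 and 1.46, and Ccr2 at the bottom at −0.84.

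Setting Ccr7 against each receptor within a library removes library scaling and gene length from the comparison of groups. For every Ccr2 read there were 0.971, 1.17 and 0.841 Ccr7 reads in the DMSO libraries and 4.81, 6.79 and 3.57 in the AMLE libraries. The log2 ratio thus moved from −0.02 ± 0.24 to 2.29 ± 0.46 (SD, n = 3), a change of 2.31 or 4.96-fold, with no overlap. The corresponding changes were 1.83 for Ccr6, 1.30 for Ccr1, 1.13 for Cxcr4 and 0.93 for Ccrl2, again without overlap of the groups. Toward Cx3cr1 the ratio changed by 1.29 with overlapping groups, since AMLE replicate 3 lay inside the DMSO range. Toward Cxcr2 the log2 ratio was 2.46 ± 0.47 in DMSO and 2.74 ± 0.41 in AMLE, with overlapping groups. Toward Ccr3 it was 5.68 ± 0.16 and 5.32 ± 0.25, a difference of −0.36, again with overlap. Within pairs of libraries of the same number, the differences had 1 sign for each of these receptors. They were 1.67, 1.73 and 0.49 for Cx3cr1, 0.40, 0.20 and 0.25 for Cxcr2, and −0.54, −0.35 and −0.18 for Ccr3, in pairs 1 to 3. With 3 libraries against 3 an exact permutation test cannot go below p = 0.10, so no test was made of these ratios. They count reads per gene and do not compare the abundance of different transcripts. All of them share the Ccr7 count, so each change combines the rise of Ccr7 with the change of the other receptor given above. The ratios are therefore no further evidence of a change in any receptor.

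**Figure D3:**
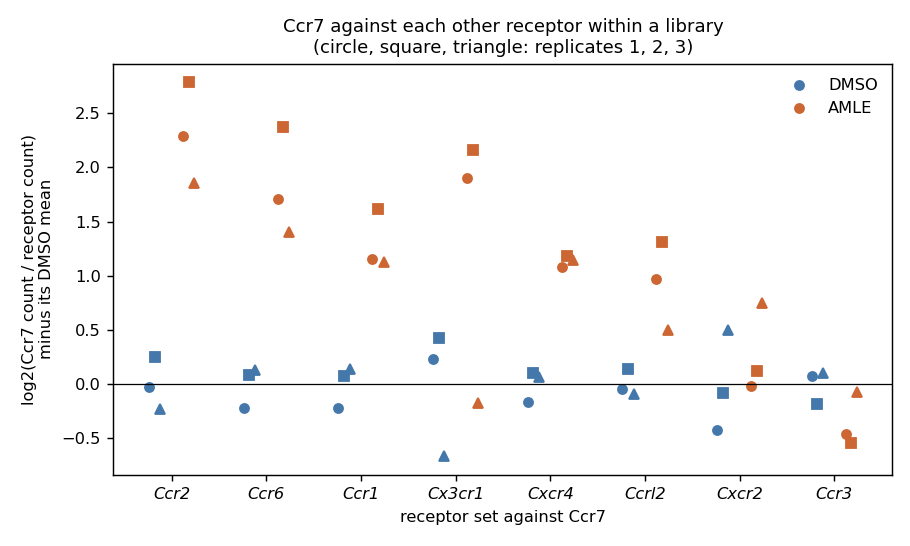
Log2 ratio of Ccr7 reads to the reads of each other receptor in the same library, minus the DMSO mean of that ratio (y axis), for 8 receptors (x axis, ordered by change). The AMLE libraries lie highest over DMSO for Ccr2, at a mean change of 2.31, and the mean change is below 0 only for Ccr3, at −0.36.

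Many CC receptor genes sit side by side. Ccr9, Cxcr6, Xcr1, Ccr1, Ccr1l1, Ccr3 and Ccr2 lie in this order within 341.9 kb of chromosome 9 (mm10, from 123767211 to 124109140). Along this stretch the neighbours Ccr3 and Ccr2 were called in opposite directions. Ccr3 begins 31109 bases after Ccr1l1 and ends 70225 bases before Ccr2, and both Ccr3 and Ccr1l1 rose, while Ccr1 was not called. Ccr1l1 reached only 0.845 CPM (1.42 ± 0.40), and its call was lost without DMSO replicates 1 or 3 or AMLE replicates 1 or 2 (adjusted p = 0.058 to 0.079). CC receptor genes of this cluster, Ccr1, Ccr1l1 and Ccr3 among them, are closely related in sequence, and their counts are uncertain because the handling of reads shared by such genes is not stated in the labels.

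**Figure D4:**
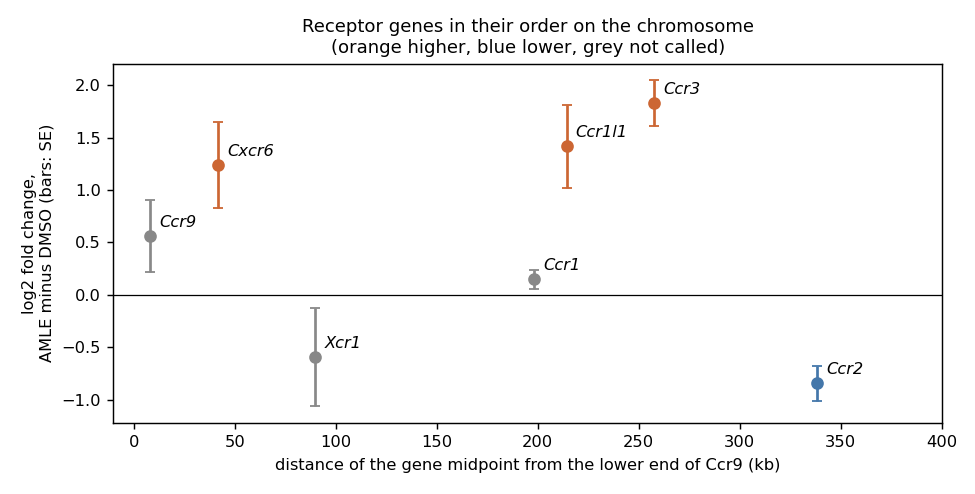
Log2 fold change with its SE (y axis) of 7 receptor genes of the chromosome 9 cluster against the distance of the gene midpoint from the lower end of Ccr9 in kb (x axis). Ccr3 at 1.83 and Ccr2 at −0.84, next to it in this plot, lie on opposite sides of 0.

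Beyond the 9, 14 further chemokine receptor genes are reported, of which 8 could be tested, 4 rose and 4 were not called. Of all tested genes, 23.0% rose and 25.6% fell. Cxcr5, the receptor for the follicle chemokine Cxcl13, rose 2.41-fold (1.27 ± 0.17, edgeR adjusted p = 9.0e-04) to 4.82 CPM. Cxcr6 rose from 0.747 to 1.76 CPM (1.24 ± 0.41), a call lost without each of AMLE replicates 1 and 2 and DMSO replicate 2 (0.067 to 0.12). Ackr1, an atypical receptor, was at 0.175 and 0.797 CPM (2.13), and its call depended on AMLE replicates 1 and 2 and DMSO replicate 3, being lost without each (0.070 to 0.093). Not called were Ccr9 (0.56), Ccr4 (−0.50), Ccr10 (−0.54) and Xcr1 (−0.60), apart from Ccr9 without DMSO replicate 2 (0.047) and Ccr4 with replicate numbers as blocks (0.036) or without DMSO replicate 3 alone (0.035) or with AMLE replicate 3 left out too (0.021). The number of these receptors called higher was 1 without AMLE replicate 1 or 2 and 2 without DMSO replicate 3. Cxcr1 did not pass the low-count filter and was not tested in the main fit. It was at 0.286, 0.281 and 0.241 CPM in DMSO and at 2.06, 2.98 and 0.344 in AMLE. Of 15 tested receptors for other attractants, such as complement fragments, formyl peptides and lipids, 2 rose (S1pr3, a sphingosine 1-phosphate receptor, 1.08, and Ptafr, the receptor for platelet-activating factor, 0.41) and 3 fell. The background is again 23.0% higher and 25.6% lower. Ltb4r1, the leukotriene B4 receptor, fell by 0.41 on the log2 scale. P2ry12 (−1.19) kept its call on leaving out AMLE replicate 3 but lost it on leaving out any of the other 5 (0.079 to 0.13), and the complement receptor C5ar1 (−0.45) was not called with replicate numbers as blocks (0.077), with no low-count filter (0.062), or on leaving out any of the 4 libraries numbered 1 or 2 (0.092 to 0.12). With the block 5 of this list fell, as did 5 without DMSO replicate 3 or AMLE replicate 3, and 1 on leaving out AMLE replicate 1 or either of DMSO replicates 1 and 2.

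Ligands for the 9 receptors rose in 11 of 14 tested genes, and 0 of them fell in the edgeR fit. The DESeq2 and limma-voom fits likewise called 0 lower, and 0 had an unadjusted edgeR p under 0.05 in that direction. With replicate numbers as blocks Ccl2, the ligand of Ccr2, was called lower (−0.63, adjusted p = 0.0028), as it was without DMSO replicate 3 (0.034). The median change over the list was 1.11. Of all tested genes, 23.0% were called higher and 25.6% lower in the edgeR fit. For Ccr7, Ccl19 had 2 reads over the 6 libraries. Ccl21a and Ccl21b were at 0, but they are near-identical copies whose shared reads may not have been counted. For Cxcr2, Cxcl1 rose 3.27-fold (1.71) and Cxcl3 3.24-fold (1.70), although the Cxcl3 call was lost with replicate numbers as blocks (0.053). For Ccr3, Ccl24 reached 71.5 CPM in AMLE replicate 1 and 111 in AMLE replicate 2, whereas AMLE replicate 3 held 0.535 and the DMSO libraries 0.477 to 0.527 (6.91 ± 1.68, adjusted p = 0.014). That call was lost with limma-voom (0.42), with the low-count filter dropped (0.078), and on leaving out DMSO replicate 1 (0.054) or 2 (0.051). Ccl20, the ligand of Ccr6, had no read.

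Of 25 tested genes of chemokine receptor signalling and migration 3 rose and 9 fell, beside 23.0% and 25.6% of all tested genes, with a median of −0.08. Pik3r5, a regulatory subunit of the phosphoinositide 3-kinase driven by chemokine receptors, rose 1.82-fold (0.86), Gnai3, a Gi subunit, rose by 0.39 and the kinase gene Ptk2b by 0.32. Gng2, a G protein gamma subunit, fell by 0.74, the kinase gene Mapk14 by 0.34 and Was, an actin regulator, by 0.27 on the log2 scale. The 9 lower genes became 4 to 7 when 1 library was left out, namely 4 on leaving out AMLE replicate 2 or either of DMSO replicates 1 and 2, and 5 on leaving out DMSO replicate 3 or AMLE replicate 1. Among 15 genes that end receptor signalling, 4 rose and 3 fell, near the 23.0% and 25.6% of all tested genes. Rgs1, which speeds the shut-off of Gi and limits chemokine responses, rose from 18.6 ± 1.72 to 55.5 ± 12.2 CPM (3.00-fold, 1.58 ± 0.16, edgeR adjusted p = 4.2e-04). Rgs12 rose by 1.05 and Rgs10 by 0.58, the latter not called without DMSO replicates 1 or 2 or AMLE replicates 2 or 3 (0.058 to 0.091) or with no low-count filter (0.066). Rgs14 fell by 0.43, Grk6 by 0.32 and Rgs19 by 0.31 on the log2 scale.

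Genes known from migrating, mature dendritic cells formed a further list. Of these, 20 of 23 rose and 0 fell in edgeR, beside 23.0% and 25.6% of all tested genes, with a median of 0.87. The DESeq2 and limma-voom fits also called 0 of them lower, and 0 fell at an unadjusted edgeR p under 0.05. Cd40, a receptor for T cell help, rose by 2.45, Ccl22, an attractant of regulatory T cells, by 2.17 and Fscn1, which bundles actin in dendrites, by 1.87. Not called were Ccl17 (0.81, adjusted p = 0.056), Laptm4b (0.19) and Ptger2 (−0.12), although Ccl17 was called higher with DESeq2 (0.045) and without AMLE replicate 3 (0.0015). This list was drawn up with part of these results already known and is no independent evidence of direction. Of 18 transcription factors tied to these receptors or to dendritic cell and monocyte fate, 9 rose and 5 fell. The share of all tested genes was 23.0% higher and 25.6% lower. Irf8, a dendritic cell regulator, rose 3.69-fold (1.88), the NF-kB subunit Rel by 1.15 and Nr4a3 by 0.88. Klf4, a monocyte regulator, fell by 1.51 and Cebpa by 0.47 on the log2 scale. Nr1h3, an oxysterol receptor, fell by 0.72, a call lost without AMLE replicate 1 (0.071) or AMLE replicate 2 (0.053). The number of lower regulators was 3 without DMSO replicate 1 or 2 and 2 without AMLE replicate 1 or 2.

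The genes whose log2 CPM most resembled that of Ccr7 over the 6 libraries, among 8963 with a mean of at least 10 CPM, were Gatsl3, Pde4b and Cd80 (Pearson r between 0.9993 and 0.9995). For Ccr2 they were Lmo4, Klf4 and Sars (r between 0.9977 and 0.9989). These libraries form 2 groups, so r mostly repeats the difference between groups and is given as a description.

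Open chromatin near the receptors was read from the authors' peak lists, which hold 18460 and 19225 distinct intervals in the DMSO libraries and 15805 and 15597 in the AMLE libraries. Merged over the lists, 22 of 24542 regions lay within 10 kb of the gene body of a member. Of these, 9 were in all 4 libraries, which 49.0% of all merged regions were. In both DMSO libraries there were 14, and in both AMLE libraries 9. No share over all merged regions is given for these counts, and the AMLE lists are shorter. They are therefore not a result about the receptors. All 9 members had a region in the window, as did 91.8% of tested genes, and 6 had one of all 4 libraries, as did 79.8%. A region in both DMSO libraries and neither AMLE library was found once, near Ccr7, where 5.95% of all merged regions and 8.72% of tested genes have one. The reverse was found 0 times, beside 0.460% of all regions and 0.816% of tested genes. With 2 libraries a group and lists of unequal length, presence and absence are a description.

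Ccr7 had 5 regions in this window, of which 3 were in all 4 libraries (mm10). One of these, chr11:99154789-99155451, spans the higher end of the gene (99144199 to 99155077), with fold enrichments at the summit of 8.34 and 6.04 in the DMSO lists and 7.51 and 6.70 in the AMLE lists, as the authors give them. The other shared regions, chr11:99141407-99142744 and chr11:99143104-99144087, lie 1455 and 112 bases before the lower end. The region held by both DMSO libraries alone, chr11:99160565-99161254, lies 5488 bases beyond the higher end and had folds of 3.52 and 4.90. A further region inside the gene was listed in AMLE replicate 2 alone (3.11). Thus the regions at both ends of the gene were listed in vehicle cells as well as after the extract, and no region near Ccr7 was listed in both AMLE libraries alone.

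Ccr2 had 2 regions, 1 in the gene and 1 lying 3168 bases beyond it, and both were listed in DMSO replicate 1 alone (5.31 and 8.97). Ccr3 had 1 region, 5936 bases beyond the gene, again in DMSO replicate 1 alone, and Ccr6 had 1 in 3 libraries at the edge of the window. Ccr1 had a region inside the gene in all 4 libraries, chr9:123964680-123965436, with folds of 6.99 and 7.44 in DMSO and 4.87 and 6.12 in AMLE. Cxcr4 had 1 region in all 4 libraries, chr1:128590790-128592695, which covers its start. For Cxcr2 the region 4299 bases before the start was in all 4 libraries, and that at the start in DMSO replicate 1 alone. Ccrl2 had 1 region of all 4 libraries, 1563 bases from its start, and Cx3cr1 had 2, inside the gene and 4984 bases outside it. Of tested genes with an annotated start in the promoter table, 80.2% had a region within 1 kb of it and 67.9% had one of all 4 libraries. Among the 8 members with such a start, 4 had one (Ccrl2, Cxcr2, Cxcr4 and Cx3cr1), and only that of Cxcr4 was in all 4.

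**Figure D5:**
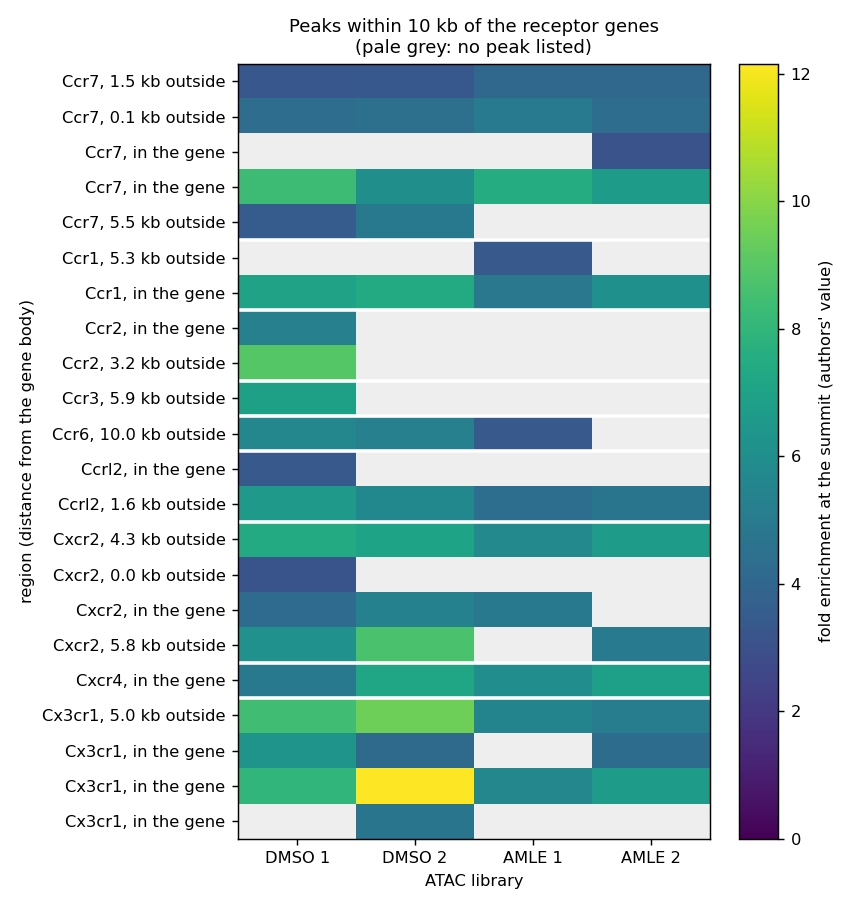
Fold enrichment at the summit (colour, the authors' value per peak) of the 22 regions within 10 kb of a receptor gene (rows, with the distance from the gene body) in the 4 ATAC libraries (columns), pale grey where no peak is listed. The Ccr7 region spanning the gene's higher end is filled in all 4 columns, and both Ccr2 regions are filled in DMSO 1 alone.

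Promoter sequences from RefSeq (GRCm38.p6, the build mm10 stands for), each of 250 bases before and 50 after an annotated start, were matched for 8 of the 9 genes. Ccr7 was not matched. Those of Ccr2, which fell, of Ccr3 and Cxcr2, which rose, and of Cxcr4, whose start lies in open chromatin in all 4 libraries, are shown because these genes differ most in response and in accessibility. Capitals mark every base inside a match to one of the motifs searched on both strands.
Ccr2 (chr9:124101933-124102232, plus strand): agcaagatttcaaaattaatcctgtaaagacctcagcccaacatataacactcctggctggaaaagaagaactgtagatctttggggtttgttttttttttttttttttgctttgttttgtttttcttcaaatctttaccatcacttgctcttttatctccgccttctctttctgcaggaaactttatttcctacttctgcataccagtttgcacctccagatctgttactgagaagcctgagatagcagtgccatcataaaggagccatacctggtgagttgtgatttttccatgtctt
Ccr3 (chr9:124021721-124022020, plus strand): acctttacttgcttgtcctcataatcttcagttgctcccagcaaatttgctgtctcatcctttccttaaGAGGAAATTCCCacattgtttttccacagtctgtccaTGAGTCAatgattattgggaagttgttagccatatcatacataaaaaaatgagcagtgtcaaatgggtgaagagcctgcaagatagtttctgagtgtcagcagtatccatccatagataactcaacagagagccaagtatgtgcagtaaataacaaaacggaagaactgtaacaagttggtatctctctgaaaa
Cxcr2 (chr1:74153744-74154043, plus strand): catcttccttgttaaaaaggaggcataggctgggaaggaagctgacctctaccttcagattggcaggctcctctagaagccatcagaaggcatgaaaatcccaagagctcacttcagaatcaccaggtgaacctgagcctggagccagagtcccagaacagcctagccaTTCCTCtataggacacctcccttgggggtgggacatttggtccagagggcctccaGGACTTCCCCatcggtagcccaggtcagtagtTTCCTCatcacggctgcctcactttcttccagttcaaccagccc
Cxcr4 (chr1:128592250-128592549, minus strand): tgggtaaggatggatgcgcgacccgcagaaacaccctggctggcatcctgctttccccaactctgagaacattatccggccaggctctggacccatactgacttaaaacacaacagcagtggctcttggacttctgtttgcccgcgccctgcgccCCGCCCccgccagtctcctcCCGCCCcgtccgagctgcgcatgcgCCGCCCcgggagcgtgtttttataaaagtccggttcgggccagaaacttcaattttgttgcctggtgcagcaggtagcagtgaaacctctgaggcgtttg

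The motifs were a kB-like motif of GGG, 5 bases of any kind and CC (found in 50.8% of all 32851 promoters in the table), an AP-1 motif TGANTCA (7.81%), the ETS core GAGGAA bound by PU.1 (28.3%), a C/EBP-like motif TTGCNNAA (10.8%), a STAT motif TTCNNNGAA (8.30%), an interferon regulatory factor motif of GAAA, 2 bases of any kind and GAAA (3.44%) and the GC box GGGCGG (35.7%). The Ccr2 window held none of these letters. Ccr3 had an ETS core beginning 181 bases before the start, overlapping a kB-like match, and an AP-1 match 144 bases before it. The windows of Ccr3 and Ccr2 lie inside the spans of these genes, which begin at 124017825 and 124101918. Sequence before those lower ends was not searched. Cxcr2 had a kB-like match 26 bases before the start and 2 ETS cores, and Cxcr4 had 3 GC boxes. A match is a description of sequence and not a site of binding. Of the 3 windows of Ccrl2, the one at 111057469 to 111057768 held 3 kB-like matches, of which 2 overlap, and a GC box, and the others held none.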

How the data were processed

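For RNA, the authors deposited counts of reads for each gene symbol and, for ATAC-seq, 1 peak list per library plus a consensus list per group. Each peak has a −log10 p and −log10 q, a fold (a ratio over background) and a display score, as deposited by the authors; score and −log10 p were not used. The submitters' processing notes name STAR 2.7.11b, Bowtie2 2.4.4, MACS3 3.0.0a7 and mm10. How reads were assigned to genes, whether strand was used, and how peaks were called is not given in the sources used here.

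Genes were tested with edgeR 4.0.16 in R 4.3.3 (TMM, default filter with minimum count 10, robust quasi-likelihood F test, two-sided), with Benjamini-Hochberg adjustment over 13075 genes and calls below 0.05. The fit was tested on simulated data. Each SE was taken as |log2 fold change| divided by √F. CPM are counts scaled to the effective library total. DESeq2 1.42.0, limma 3.58.1 (voom), other scalings, no filter, a replicate block and omitted libraries were alternatives. Deviations of same-numbered DMSO and AMLE libraries from their group means correlated at 0.29, 0.28 and 0.43. Libraries numbered 1 and 2 correlated across the groups at 0.105 and 0.110, and those numbered 3 with the others at −0.31 to −0.27. The same-numbered values were the highest, but the check mainly sets replicate 3 apart and is weak for pairing numbers 1 and 2. The labels give no source of a pairing. Transcript lengths and protein sequences were not used here, so levels were not compared between genes, ratios to Ccr7 are of counts and not per length as planned, and the planned protein comparison was not made. A planned gene of the list of other chemokine receptors is not reported here, and that list's counts leave it out. Grk2 and Grk3 were matched by older symbols.

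Peaks of the 4 lists were merged into regions (overlap of at least 1 base) and assigned to genes within 10 kb. Of tested genes, 12505 matched RefSeq coordinates (GRCm38.p6) by current symbol. Named genes were the 9 members, the 3 largest called rises and falls of each list with mean CPM of at least 1, the other tested chemokine receptors and selected markers. The markers named, and Cxcr1, Ccl2, Ccl17, Ccl19, Ccl20, Ccl21a, Ccl21b, Laptm4b and Ptger2, were chosen after their values were seen. The members and lists were chosen with earlier results of these data known.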

Additional observations from a re-analysis of the deposited data

How the results depend on the processing

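Under 13 alternatives the 9 members gave 117 values, of which 112 kept their side of the threshold and 5 (Cxcr2 and Ccrl2) lost the call. Cx3cr1, never called, was the only member to change sign, to −0.57 on leaving out AMLE replicate 3 and to −0.18 with DMSO replicate 3 left out too. Members called higher were 4 to 5 and lower 1 when 1 library was left out. With replicate numbers as blocks (same-numbered libraries paired), lower counts were 1 for other chemokine receptors, 5 for other attractant receptors and 1 for ligands, and no member's call changed. Without both libraries numbered 3 they were 1, 8 and 1. The cause was not tested. Leaving out 1 library gave 1 to 5 other chemokine receptors higher and 0 to 1 lower. The value of 5 includes a gene outside the 8 tested in the main fit. Other attractant receptors called lower were 1 to 5, ligands 0 to 1, signalling genes 4 to 7 and regulators 2 to 5. Regions in both DMSO libraries alone numbered 3 at −log10 q of at least 5. They numbered 2 where peaks had to cover at least 50% of a region, and 4 within 50 kb. Within 50 kb, 36 regions were in both DMSO and 25 in both AMLE libraries, as a wider window must hold more. No share over all regions is given for these counts either. Leaving out 1 ATAC library gave 2 to 6 regions in DMSO alone and 0 to 1 in AMLE alone. Low counts limit Ccr6, Ccr1l1 and Ackr1, and the spread between replicates limits Cx3cr1.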
